A study of Mus musculus with 4 samples.

Results

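Mature neutrophils were sought among the cells of a mouse lung sort, and 312 of the 7350 barcodes kept from that library met the rule for them (4.24%, exact Clopper-Pearson 95% interval 3.80 to 4.73). A barcode is the tag of 1 droplet, and a unique molecular identifier (UMI) is 1 counted transcript molecule. Barcodes were kept if they showed 500 or more genes and no more than 15% of UMIs from mitochondrial genes. Members carried at least 2% of their UMIs in S100a8 and S100a9 together, at least 2 UMIs of Csf3r, Cxcr2 and Il1b together, and at most 1 UMI of Camp and Prtn3 together. Their comparison group was the 2049 other kept barcodes with at least 2 UMIs of Tyrobp, a signalling adaptor of myeloid and natural killer cells. The rule was written with results of these data known and reads the same UMIs as the gene levels below, so those levels describe the chosen barcodes and no test was made of them.

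The series holds 4 libraries of 1 each from Gramd2creERT2;mTmG mice, which carry a tamoxifen-inducible Cre recombinase at Gramd2, a gene expressed in alveolar type I cells, and a reporter that changes from membrane tdTomato to membrane GFP where Cre has acted. Day 0 is the lung cell suspension sorted for GFP, and its cell type is labelled as alveolar epithelial. Organoids of such cells, grown in Matrigel with MLg mouse lung fibroblasts in serum-containing medium with insulin, transferrin and the TGF-beta receptor inhibitor SB 431542, were sampled at days 8, 13 and 20 after bead enrichment for EpCAM. The sources used here do not give age, sex, number of animals or Cre induction, and the molecule is labelled nuclear RNA although the protocol describes single cells.

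Neutrophils are short-lived granulocytes made in bone marrow. They fill their granules in order during maturation, azurophil (primary) granules at the promyelocyte stage, then specific granules, gelatinase granules and secretory vesicles, and largely stop dividing and making granule protein before release into blood. The lung holds a large marginated pool of them in its capillaries, where they respond to chemokines through Cxcr2, to complement and formylated peptides, and release interleukin 1 beta, proteases and oxidants. S100a8 and S100a9 form calprotectin, the most abundant protein of their cytosol.

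The promoters of S100a8, S100a9, Retnlg and Csf3r are printed because these genes define or lead the neutrophil barcodes and because each holds 1 match to a motif of a granulocyte regulator. Of the other promoters searched gene by gene, that of Cstdc4 held 1 match. Those of Cxcr2, Il1b, Stfa2l1, G0s2 and Mxd1, which also define or lead the barcodes, held 0. Each run is the 250 bases before the gene's start from RefSeq on GRCm38.p6, 5′ to 3′ on the gene's strand, with the matched letters in capitals. S100a8 (chr3:90668821-90669070, plus strand) holds the PU.1 letters GAGGAAG as their reverse complement, the first base lying 171 bases before the start. S100a9 (chr3:90695722-90695971, minus strand) holds the C/EBP letters TTGCNNAA 236 bases before the start. Retnlg (chr16:48872358-48872607, plus strand) holds the C/EBP letters as their reverse complement 246 bases before the start. Csf3r (chr4:126024409-126024658, plus strand) holds the PU.1 letters 86 bases before the start.
S100a8: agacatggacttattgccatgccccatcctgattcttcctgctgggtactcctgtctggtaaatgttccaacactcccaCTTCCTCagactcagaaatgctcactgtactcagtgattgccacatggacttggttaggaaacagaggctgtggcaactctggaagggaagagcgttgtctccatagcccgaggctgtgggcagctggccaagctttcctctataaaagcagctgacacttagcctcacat
S100a9: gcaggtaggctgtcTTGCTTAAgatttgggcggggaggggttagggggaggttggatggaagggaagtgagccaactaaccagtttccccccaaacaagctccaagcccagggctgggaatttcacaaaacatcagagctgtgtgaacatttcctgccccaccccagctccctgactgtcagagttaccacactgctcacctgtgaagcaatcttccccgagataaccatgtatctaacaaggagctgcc
Retnlg: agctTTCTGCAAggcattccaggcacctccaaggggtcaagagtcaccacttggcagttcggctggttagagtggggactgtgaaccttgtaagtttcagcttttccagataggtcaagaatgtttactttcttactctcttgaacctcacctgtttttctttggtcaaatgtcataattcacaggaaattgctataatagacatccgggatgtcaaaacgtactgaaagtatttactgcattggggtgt
Csf3r: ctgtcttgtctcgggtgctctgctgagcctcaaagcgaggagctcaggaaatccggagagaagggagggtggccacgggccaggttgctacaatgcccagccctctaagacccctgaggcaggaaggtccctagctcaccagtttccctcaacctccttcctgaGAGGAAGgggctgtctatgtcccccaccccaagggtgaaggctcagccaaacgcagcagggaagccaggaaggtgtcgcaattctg
Across the 20 genes with the largest ratios over the comparison group and at least 200 CPM (UMIs per 1000000 UMIs of a group), 19 had a promoter in the RefSeq table. Of these, 4 held TTGCNNAA and 7 held GAGGAAG on either strand. Of all 32851 promoters of that length, 9.56% held the first and 10.6% the second. The AP-1 letters TGANTCA (6.75% of all promoters) and the NF-kB motif (0.356%) were in none of the 19. A match describes letters in this window and is not a binding site.

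Day 0 held 31850454 UMIs over 8902 barcodes, and the cultures held 120905926 to 154258012 UMIs over 10368 to 11445 barcodes. With the same clauses, 0 of 7893, 9311 and 9178 kept barcodes were members at days 8, 13 and 20, which allows shares of up to 0.0380, 0.0322 and 0.0327% by a limit of 3 counts. The upper bounds of the exact two-sided 95% interval were 0.0467, 0.0396 and 0.0402%. The only culture barcodes with at least 2% of UMIs in S100a8 and S100a9 were 5 at day 13. Each of these 5 held 381 to 774 UMIs of Camp and Prtn3 together, genes of the granule precursors, and so fell outside the members. Bead enrichment for EpCAM stood between culture and library, so the lack of members after day 0 cannot be told apart from that step. Day 0 shared 25 to 41 barcode sequences with each culture library (at most 0.461% of its barcodes). Of these sequences, 2 at day 13 and 2 at day 20 were those of day 0 members.

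The 312 neutrophil barcodes were shallow beside the other Tyrobp barcodes. Their depth ran from 665 to 28477 UMIs with a median of 1870, against a median of 5030 in the comparison group, and their median number of detected genes was 897. S100a8 and S100a9 took 2.01 to 30.8% of UMIs, with a median of 7.10%. S100a9 had 142.5 UMIs at the median barcode and 706 at the highest, and S100a8 had 55 and 433. Il1b, the interleukin 1 beta gene, was seen in 311 barcodes, Csf3r, the receptor for granulocyte colony-stimulating factor, in 282 (90.4%), and Cxcr2, the receptor for CXC chemokines, in 252 (80.8%). Camp and Prtn3 had 0 UMIs in every member, although the rule allowed 1. Mxd1, a MYC antagonist of late granulocyte differentiation that the rule did not read, had a UMI in 282 barcodes (90.4%), with a median of 3 and a maximum of 17 UMIs.

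The label was compared with 25 mature neutrophil genes that the rule did not use. With each barcode thinned to 1000 UMIs, which left out 22 shallower members, the 290 remaining members showed a median of 9 of these genes (range 1 to 17), and 285 (98.3%) showed at least 3. The median was 1 gene in other Tyrobp barcodes, where 25.6% showed at least 3. It was 0 in endothelial-marker barcodes (at least 3 UMIs of Cdh5, Cldn5, Egfl7 and Ramp2 together and no Tyrobp), where 0.405% did. These 1447 endothelial-marker barcodes had nearly the members' depth (median 1967 UMIs) and stand here for the background of free RNA. Most members thus showed at least 3 genes of this list, which includes Mxd1 and was chosen with earlier results of these data known. Granulocyte barcodes with Camp or Prtn3 UMIs were not a group of their own in this comparison. Against those, 15 of the 25 genes were higher in members, 3 lower (Cd177, Mmp8 and Ly6g) and 7 neither. Transcripts of the labelled alveolar epithelium were concentrated in few members. Ager, a marker of alveolar type I cells, had a UMI in 37 of 312 members (11.9%), against 12.9% of endothelial-marker barcodes, and 6 members held 81.0% of its 306 UMIs. Of the alveolar type I list, 10 members with at least 10 UMIs each held 572 of 751 UMIs, up to 126 in 1 barcode, and 6 of these 10 were among the barcodes called unmixed below.

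A large part of the RNA in the neutrophil barcodes came with markers of other immune cells. Of the 312, 84 (26.9%) had at least 3 UMIs of T cell genes (Cd3d, Cd3e, Cd3g, Trac, Trbc2), 46 (14.7%) of B cell genes (Cd79a, Cd79b, Ms4a1, Ighm), 128 (41.0%) of MHC class II genes (H2-Aa, H2-Ab1, H2-Eb1, Cd74) and 32 (10.3%) of macrophage genes (C1qa, C1qb, C1qc, Marco, Mrc1, Plet1, Krt79, Ear1). None of these sets reached 3 UMIs in 145 members, called unmixed below. The name refers to these 4 immune sets only: among the 145, 6 barcodes had at least 10 UMIs of the alveolar type I list (up to 98), 2 of smooth muscle genes (up to 99) and 2 of the ciliated cell list (up to 70). The other 167, called mixed-marker, had 1 set (86), 2 sets (48), 3 sets (24) or all 4 (9) at that level. This division was made after the data were seen, and it describes the 4 sets themselves by construction. It also follows depth, since the count of UMIs is absolute: 87 of the 90 members with at least 4000 UMIs were mixed-marker (96.7%), against 38 of 165 with under 2000 (23.0%).

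Thinned to 1000 UMIs, 133 of 290 members (45.9%) had at least 3 UMIs of a set, against 1535 of 1977 other Tyrobp barcodes (77.6%) and 50 of 1236 endothelial-marker barcodes (4.05%). Among barcodes with at least 4000 UMIs, unthinned, the shares were 96.7, 97.8 and 27.6% in the same order. Mixed-marker barcodes had a median of 4199 UMIs and 1660 genes, and unmixed ones 1342 UMIs and 616 genes. The mixed-marker barcodes held 80.9% of all UMIs of the members, so summed levels below are for all members, with those of unmixed barcodes beside them where the contrast between both matters. In the plot of depth against S100 share, the unmixed barcodes form a narrow band of shallow depth and reach high shares, while the mixed-marker ones spread to the right at low shares.

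**Figure D1:**
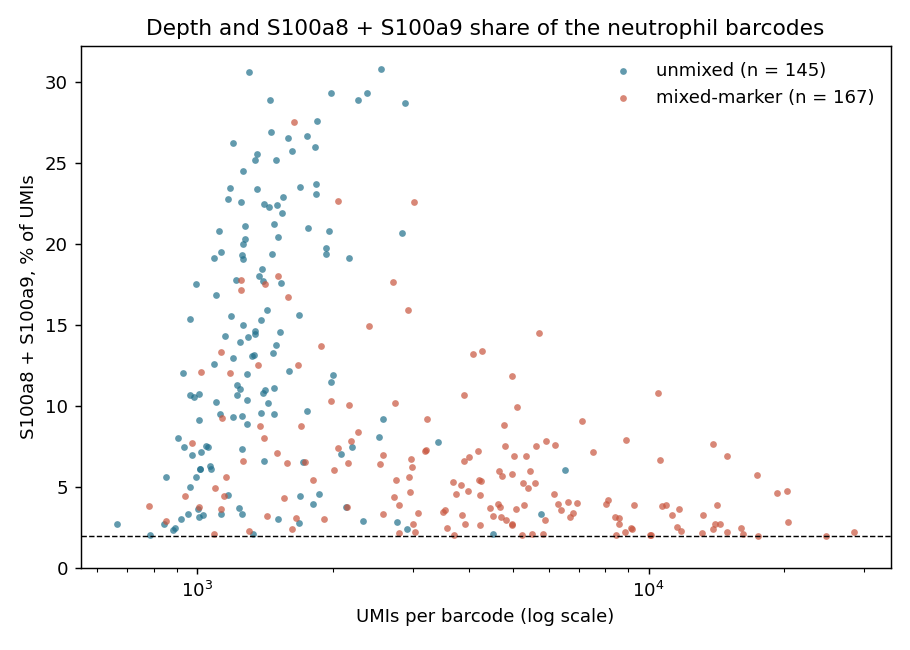
Each point is 1 of the 312 neutrophil barcodes, with its UMIs on a log x axis and the percent of its UMIs in S100a8 and S100a9 on the y axis, coloured as unmixed (145) or mixed-marker (167), and the dashed line is the 2% minimum of the rule. The medians were 1342 UMIs and 12.2% in unmixed barcodes and 4199 UMIs and 4.69% in mixed-marker barcodes.

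Neutrophil transcripts differed less per barcode between both kinds than all genes together. Of the genes given here, S100a9, S100a8, Il1b, Csf3r and Cxcr2 chose the members, and Cd74 and Trbc2 made the division. The division also follows depth, so the larger total of mixed-marker barcodes is in part set by it. S100a9 had a median of 135 UMIs in unmixed and 153 in mixed-marker barcodes, S100a8 42 and 65, Il1b 12 and 14, Retnlg 6 and 8, and Csf3r, Cxcr2 and Mxd1 3, 2 and 3 in both. Srgn, the proteoglycan core of granules, had 8 and 12, and the summed mature list 43 and 54. The mean UMIs per barcode of mixed-marker over unmixed barcodes stood at 1.25 for S100a9, 1.41 for S100a8, 1.20 for Il1b, 1.55 for Retnlg, 1.45 for the mature list and 1.61 for Srgn, and at 3.68 for all genes together. Cd74, the MHC class II invariant chain, averaged 0.172 UMIs in unmixed and 30.4 in mixed-marker barcodes, and Trbc2, a T cell receptor constant gene, 0.0621 and 5.26. As CPM, the median ratio of unmixed over mixed-marker barcodes across 25 mature genes was 2.59. It ran from 0.707 for Cd300ld, which was thus lower in unmixed barcodes, to 5.60 for Ly6g, and 20 of the 24 with at least 50 CPM were at least 2-fold higher. Scrublet, a program that scores doublets, called 0 of 7350 barcodes by its own threshold, and how well it detects doublets here was not tested. Removal of its 523 highest scores took 7.12% of all kept barcodes and 24 members (7.69%), near the same share. Of these 24, 12 were among the 167 mixed-marker barcodes. Whether mixed-marker barcodes hold more than 1 cell was not tested.

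**Figure D2:**
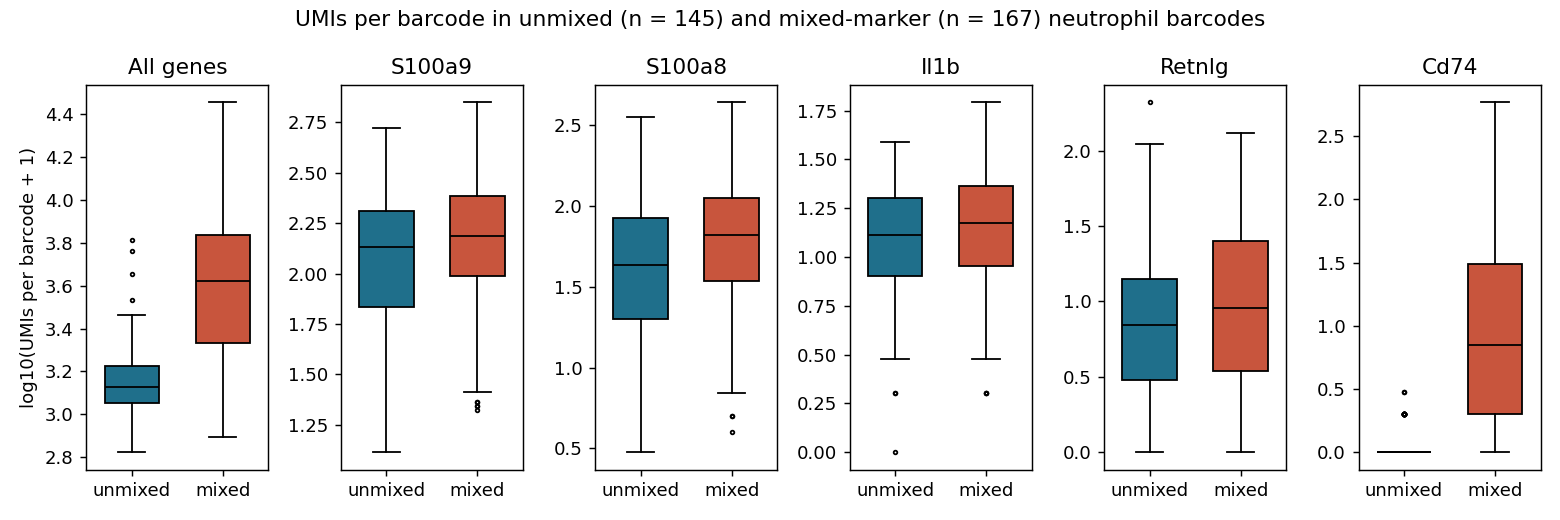
Boxes show log10(UMIs per barcode + 1) for all genes and for 5 genes in unmixed (n = 145) and mixed-marker (n = 167) neutrophil barcodes, with the median line, quartile box, whiskers and outlying points, and each panel has its own y range. All genes together and Cd74 differed, with medians of 1342 against 4199 and 0 against 6 UMIs, while S100a9 (135 against 153), S100a8 (42 against 65) and Il1b (12 against 14) differed less. S100a9, S100a8 and Il1b were read to choose the members and Cd74 to divide them, and the division follows depth.

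Against the other Tyrobp barcodes, 3495 genes had at least 50 CPM in either group. Of these, 319 (9.13%) were at least 2-fold higher in the summed neutrophil barcodes and 207 (5.92%) at least 2-fold lower, and the median log2 ratio over all of them was -0.10. The intervals given with these values are exact Poisson 95% intervals, and they cover counting error only: with 1 library there is no spread between animals, and p-values cannot be given. In the unmixed barcodes 700 of 3643 genes (19.2%) were higher and 1208 (33.2%) lower, with a median of -0.35. Against the mixed-marker barcodes, unmixed ones were higher at 417 of 3399 genes (12.3%) and lower at 831 (24.4%). The shallower sum of the unmixed barcodes (222432 UMIs) also makes a 2-fold difference easier to reach by counting error.

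Retnlg, which encodes a resistin-like secreted protein of neutrophils, had the highest level among the genes outside the rule that were at least 2-fold higher. It had a UMI in 280 of 312 barcodes, with a median of 7 and a maximum of 208 UMIs. Its summed level was 4394 CPM (4275 to 4516), against 176 in other Tyrobp barcodes, a ratio of 24.9 (23.8 to 26.2), and it was 8272 CPM in the unmixed barcodes. Free RNA was low at this locus: thinned to 1000 UMIs, 79.0% of members (73.8 to 83.5) and 0.324% of endothelial-marker barcodes had a Retnlg UMI, and unthinned 89.7% of members did. G0s2, an inhibitor of fat breakdown, stood at 873 CPM against 48.8 (ratio 17.9, 16.3 to 19.7). Mmp9, the gelatinase of the late granules, stood at 579.9 against 39.2 (ratio 14.8, 13.2 to 16.6). Mxd1 stood at 914 against 77.4 (ratio 11.8, 10.9 to 12.9). In the unmixed barcodes these genes, in the same order, were at 1821, 1155 and 1956 CPM.

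The genes that chose the members are given as description. S100a9 was 45815 CPM in members and 2355 in other Tyrobp barcodes, and S100a8 19735 and 1278. Il1b was 4121 and 374, Csf3r 1041 and 87.4, and Cxcr2 582 and 32.8. Of the S100 list, 4 of 8 genes were higher and 1 lower. Besides the calprotectin pair, S100a6 (3545 against 913) and S100a11 (3862 against 1101) were higher, and S100a1 was lower (65.2 against 293). S100a4 and S100a10, calcium-binding proteins of motile and adherent cells, differed little in all members but were 175 and 126 CPM in unmixed barcodes, against 649 and 778 in the comparison group.

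**Figure D3:**
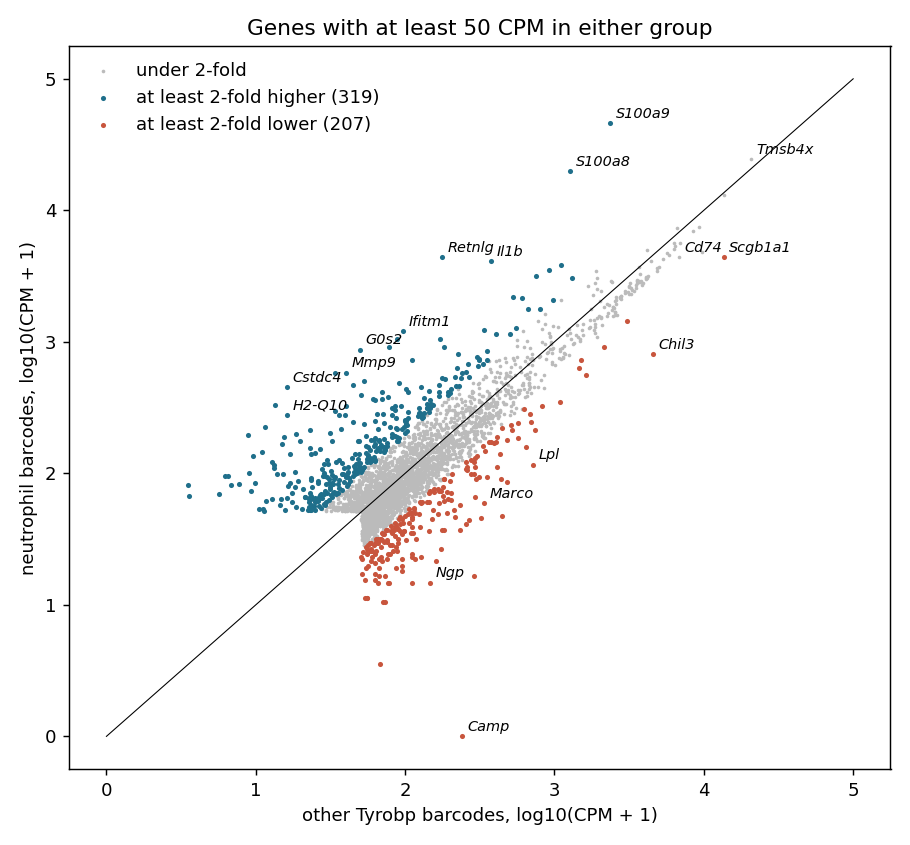
Each point is 1 of the 3495 genes with at least 50 CPM in either group, with log10(CPM + 1) in the other Tyrobp barcodes on the x axis and in the 312 neutrophil barcodes on the y axis, and the line marks equal levels. The 319 genes at least 2-fold higher, led by S100a9, S100a8, Retnlg and Il1b, lie above the line, and the 207 at least 2-fold lower, among them Camp, Chil3 and Marco, lie below it.

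Of the 25 mature neutrophil genes, 23 had at least 50 CPM in either group. Of those 23, 21 were higher, none was lower, and the median log2 ratio was 3.16. The unmixed barcodes had 22 of 24 higher and a median of 4.35. Among them were Hdc, the histidine decarboxylase that makes histamine (503 against 51.8 CPM), and Ifitm1, an interferon-induced membrane protein (1203 against 96.0), whose reads can be shared with its close relatives Ifitm2 and Ifitm3. Il1r2, the decoy receptor for interleukin 1, was 189 against 14.5. Asprv1, a retroviral-like aspartic protease, was 195 against 7.93. Cd300ld and Gsr, glutathione reductase, were within 2-fold (114 against 73.4 and 66.9 against 47.5). Ly6g, a surface antigen widely used to sort mouse neutrophils, and Cd177, another neutrophil surface protein, were under 50 CPM in both groups, at 49.8 against 2.99 and 32.6 against 7.58. Ly6g had a UMI in 5.52% of thinned members.

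Granule genes differed in direction, also within 1 list. Of 10 primary granule genes, Mpo, Elane, Prtn3, Ctsg, Ms4a3 and Bpi had 0 UMIs in all 312 members, and Prss57 was 0.858 CPM. Mpo, myeloperoxidase, and Elane, neutrophil elastase, were also at or under 3 UMIs in the comparison group, so no ratio is given. Ctsc, the protease that activates granule serine proteases, was lower (172 against 405 CPM). Specific granule genes were 3 higher and 3 lower of 6, with a median of -0.56, and the lower ones include Camp and Ngp. Against the macrophage-marker barcodes described below, 3 were higher and 1 lower of 4 (median 2.66). Against the monocyte-marker barcodes, 4 were higher and 0 lower of 4 (median 3.27). Camp, the cathelicidin precursor, was chosen to be absent, and Ngp, neutrophilic granule protein, was 13.7 CPM against 147. The Ngp level of the comparison group came from its barcodes over 2% S100a8 and S100a9: without them the log2 ratio of Ngp was 5.02, so its direction turned. With members at 13.7 CPM, both sides were then under the 50 CPM minimum. Ltf, lactoferrin, was 1.72 against 23.9, both under 50 CPM. Lcn2, the siderophore-binding lipocalin, was higher (439 against 99.7, ratio 4.41, 3.98 to 4.88), as were Mmp8, the neutrophil collagenase (214 against 21.9), and Anxa1, annexin A1 (681 against 261). The 11 granulocyte barcodes with Camp or Prtn3 UMIs described below are part of the comparison group and had far higher Lcn2 and Ltf. They raise its level of both genes, so the ratio of Lcn2 and the direction of Ltf depend on them. The level of Lcn2 in endothelial-marker barcodes was 113 CPM, above that of other Tyrobp barcodes.

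Of 9 gelatinase granule and secretory vesicle genes, 5 were higher and none lower, with a median of 1.17. Besides Mmp9 they were Cd14, the lipopolysaccharide co-receptor (1219.8 against 334 CPM), Adam8, a surface metalloprotease (201 against 30.2), Slc11a1, a phagosomal metal transporter (112 against 40.3), and Fpr1, a formyl peptide receptor (104 against 46.1). The NADPH oxidase, which makes superoxide, showed no common direction: Ncf4, a cytosolic subunit, was higher (393 against 194) and Hvcn1, the proton channel, was lower (28.3 against 88.5). Cybb, the catalytic subunit, was 448 against 852, and 234 in unmixed barcodes.

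Chemoattractant receptors were 7 higher and 0 lower of 11, with a median of 1.19 (8 and 2 in unmixed barcodes, median 2.08). These counts and medians include Cxcr2, a gene of the rule. Outside the rule 6 were higher, and 7 in unmixed barcodes. The largest ratio outside the rule was that of Ccr1, a receptor for CC chemokines (395 against 50.01 CPM, ratio 7.89, 7.004 to 8.88). Ptafr, the platelet-activating factor receptor, was 134 against 55.6, and C5ar1, the receptor for complement C5a, 216 against 94.7. Cxcr4, the marrow-homing receptor that rises on aged neutrophils, was 412 against 168 (ratio 2.45, 2.22 to 2.71), with a UMI in 40.0% of thinned members and 4.61% of endothelial-marker barcodes. Ccr2 and Cx3cr1, monocyte chemokine receptors, were within 2-fold in all members but 8.99 and 22.5 CPM in unmixed barcodes, against 149 and 155.

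The list of genes of aged and tissue neutrophils had 2 of 8 higher, Cxcr4 and Cd24a, a glycosylated surface antigen, and 1 lower, Ltc4s, with a median of 0.09. Siglecf, seen on neutrophils of some lung tumours and on alveolar macrophages, was 12.01 CPM against 37.4, with a UMI in 1.03% of thinned members. Of the adhesion genes, Selplg, the ligand of P-selectin, was higher (576 against 238). Itgam, the integrin subunit CD11b, was 232 against 119, just under 2-fold, and Itgb2, its partner, 350.0 against 323.

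Fc and pattern recognition receptors were 8 higher and 0 lower of 15, with a median of 1.33. The largest ratios were those of Trem1, an amplifier of inflammatory signals (196 against 17.7 CPM), and of the paired C-type lectins Clec4d (295 against 33.0) and Clec4e (369 against 68.5), which bind fungal and mycobacterial lipids. Tlr2 and Tlr4 were 86.6 against 117 and 16.3 against 21.6. Of inflammatory cytokine and feedback genes, 6 of 13 were higher, 5 of them outside the rule, and Ccl3 was lower (71.2 against 189). The list median was 0.79. Ptgs2, the inducible cyclooxygenase, was 115 against 12.2 (ratio 9.44, 7.48 to 11.9), and Nlrp3, an inflammasome sensor, 176 against 47.8. Il1rn, the interleukin 1 receptor antagonist, was 91.8 against 40.9. Il1a had 0 UMIs in members, Il6 was 2.57 CPM and Tnf 15.4. Il1b was abundant beside these, but its UMIs helped to choose the members.

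Interferon response genes were 4 higher and 0 lower of 6, with a median of 1.69. They were Slfn4 (80.6 against 5.77 CPM), Slfn1 (274 against 34.8), Isg15, a ubiquitin-like protein (95.2 against 28.0), and Irf7, a transcription factor of the interferon response (96.9 against 31.6). The other 12 of the 18 list genes were under 50 CPM in both groups. Isg15 had a UMI in 8.97% of thinned members and in 6.47% of endothelial-marker barcodes, so it was seen in few members. Whether endothelial-marker barcodes make Isg15 themselves was not tested. Slfn4 had 12.8% and 0%.

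Among transcription factors 4 of 14 were higher, with a median of 0.71: Mxd1, Cebpd (417 against 104 CPM), Fosl2 (169.8 against 74.9) and Junb (1782 against 794). Cebpa, which drives early granulocyte commitment, was lower (59.2 against 129.6). Cebpe, the factor of specific granule genes, was 4.29 CPM and Gfi1 4.29. Cebpb, the factor of emergency granulopoiesis, was 3059 against 1918. Irf8, a factor of monocytes and macrophages, was 4.50 CPM in unmixed barcodes, against 215.

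Survival and apoptosis genes showed no common direction, with 2 higher and 1 lower of 13 and a median of 0.01. Mcl1, the short-lived survival factor on which neutrophils depend, was higher (1774 against 667 CPM, ratio 2.66, 2.53 to 2.79), and 3381 in unmixed barcodes. Fas, the death receptor, was 97.8 against 37.1. Bcl2a1a was lower (120.1 against 256), but the Bcl2a1 copies are nearly identical and their reads can be split between them. Cell cycle genes were 0 higher and 4 lower of 7, with a median of -1.14, and all 7 were lower in unmixed barcodes. Mki67, a proliferation antigen, was 21.4 against 65.5.

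Metabolic genes differed in direction. All 14 oxidative phosphorylation genes were within 2-fold in the summed members (median -0.56), and 10 were lower in unmixed barcodes (median -1.19). Of 11 glycolysis and hypoxia genes, 2 were higher: Slc2a3, a glucose transporter (122 against 11.9 CPM, ratio 10.2, 8.14 to 12.9), and Pygl, the glycogen phosphorylase of liver and leukocytes (236 against 101). Their list median was 0.50. Ribosomal protein genes took 6.42% of UMIs in unmixed barcodes, 18.5% in mixed-marker barcodes and 20.5% in other Tyrobp barcodes. The median mitochondrial share was 1.06, 2.81 and 3.45% in the same order.

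Stefin A genes, cysteine protease inhibitors in a cluster on chromosome 16, included the 2 largest ratios among genes with at least 200 CPM in members and were uneven among barcodes. Cstdc4 was 449 CPM against 15.3 (ratio 29.3), Stfa2l1 328 against 12.5, and Cstdc5 225 against 10.6. These copies are similar in sequence, and how reads were shared between them is uncertain. Of 312 members, 162 (51.9%) had a UMI of Cstdc4, Cstdc5, Cstdc6 or Stfa2l1, and 38 with at least 10 held 62.4% of them. Among 1447 endothelial-marker barcodes 3 had one. Of other secreted protease inhibitors, Wfdc21 (800.3 against 223) and Wfdc17 (467 against 166), also close relatives, were higher, and Slpi, the leukocyte protease inhibitor, was lower (346 against 1091).

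The remaining lists differed less. Chromatin genes were 2 higher and 1 lower of 7, with Lmnb1 (247 against 61.8 CPM) and Lbr, the lamin B receptor needed for lobed nuclei (199.9 against 80.4), above, and Lmna, the A-type lamin, below (93.5 against 313). Padi4, the enzyme that citrullinates histones in extracellular traps, was 24.0 against 5.01. Eicosanoid genes had Ptgs2 higher and Ltc4s, leukotriene C4 synthase, lower (89.2 against 295) of 4. Cytoskeletal genes were within 2-fold for 15 of 16, and Gmfg, a remodeller of branched actin, was higher (1155 against 501). Of 14 immediate early and heat shock genes 3 were higher, Btg1, Junb and Dusp1, while Fos (1078 against 928) and Jun (243 against 359.5) were not. H2-Q10, a secreted class I gene whose reads can be confused with those of its relatives, was 277 against 15.2.

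**Figure D4:**
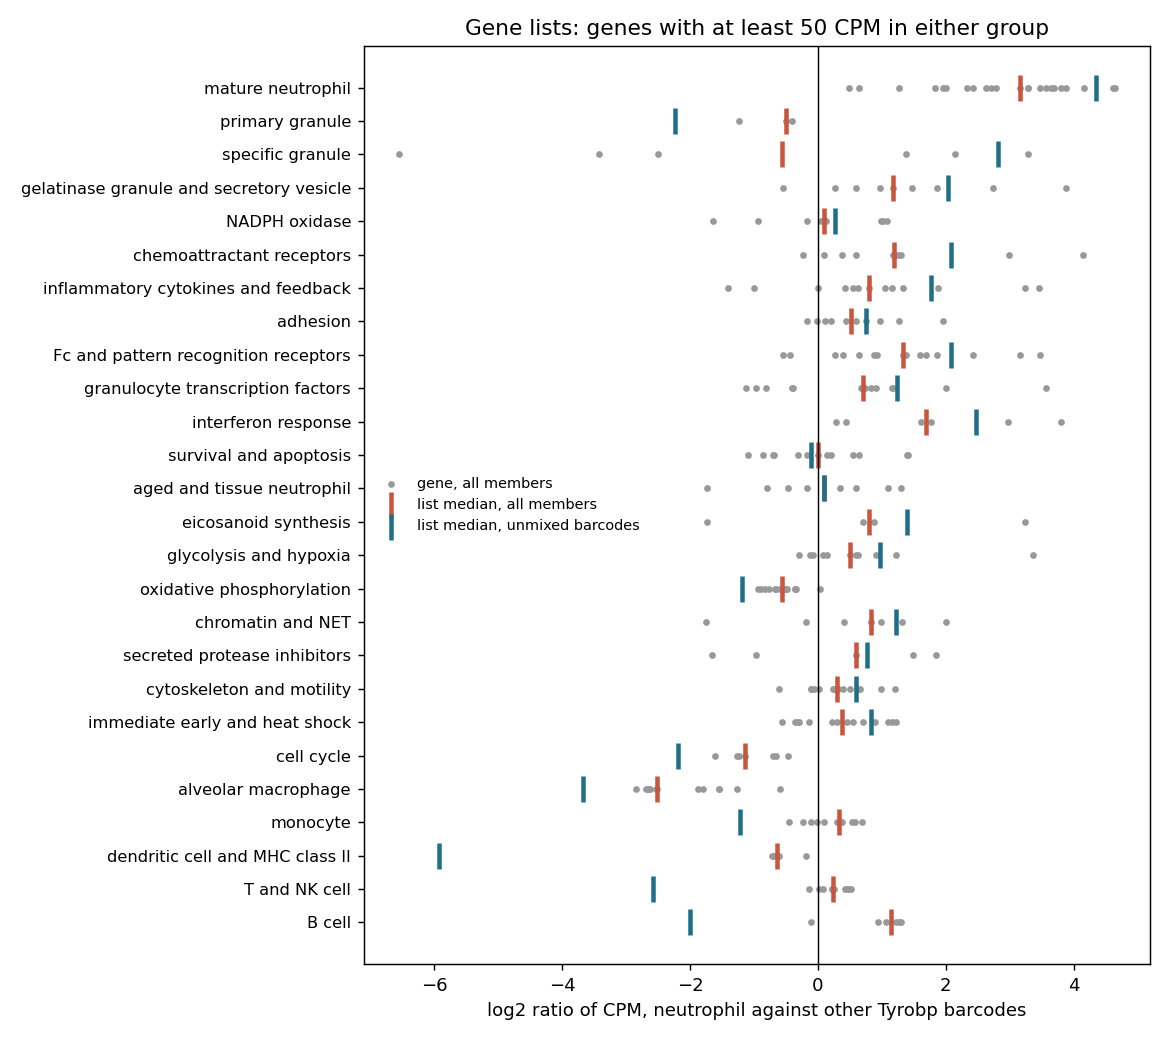
Each grey point is a list gene with at least 50 CPM in either group, placed by its log2 ratio of summed CPM in all 312 neutrophil barcodes over other Tyrobp barcodes, and bars mark the list medians for all members (red) and for the 145 unmixed barcodes (blue). The mature neutrophil list has medians of 3.16 and 4.35, while the B cell list has 1.15 and -2.01 and the MHC class II list -0.63 and -5.92. Genes of the B cell and MHC class II lists were used to choose the unmixed barcodes.

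Markers of other immune cells differed between unmixed and mixed-marker barcodes, in large part by construction. Genes of the T cell, B cell, macrophage and MHC class II lists made that division, so their low levels in unmixed barcodes are description only. In all members, the T and NK cell list had 0 of 10 genes 2-fold apart (median 0.23), the monocyte list 0 of 12 (0.33), the interstitial macrophage list 0 of 6 (-0.71) and the dendritic cell and MHC class II list 0 of 5 (-0.63), while the B cell list had 4 of 6 higher (1.15). In unmixed barcodes the medians were -2.58, -1.22, -3.81, -5.92 and -2.01. Cd74 was 4383 CPM in members, 112 in unmixed barcodes and 6791 in other Tyrobp barcodes. Lyz2, the lysozyme of myeloid cells that no set contained, was 4841, 3120.1 and 9666. Alveolar macrophage genes were lower for 12 of 13 (median -2.51), led by Ear1 (44.6 against 319), Krt79 (36.0 against 232) and Lpl, lipoprotein lipase (115 against 723). Chil3, a chitinase-like protein, was 807 against 4558, and 10 members held 90.0% of its 941 UMIs. Basophil, eosinophil, erythroid and endothelial lists had no gene at 50 CPM in either group, and Epx, Prg2, Mcpt8 and Cpa3 had 0 UMIs in members.

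Epithelial transcripts sat in few members or at background, and most UMIs of smooth muscle genes sat in few members. Scgb1a1, the club cell secretoglobin, had a UMI in all 312 members and in 99.9% of endothelial-marker barcodes, at 4407 and 8248 CPM (11248 in unmixed barcodes). Of the 332 UMIs of the smooth muscle genes Acta2, Tagln and Myh11, 3 members held 74.7%. A UMI of these genes was seen in 48 members (15.4%), above the 4.42% of endothelial-marker barcodes. Both reporters were near their levels in endothelial-marker barcodes. EGFP was 120.1 CPM in members and 136 in those barcodes, with a UMI in 11.4% and 10.4% after thinning. The tdTomato levels were 434 and 534, with 39.7% and 39.5%. Endothelial-marker barcodes come from the same sort and can make a reporter themselves, so they give no free RNA level for it. Of the 154 members with at least 2 reporter UMIs, 7 (4.55%) had at least 80% EGFP and 98 (63.6%) at least 80% tdTomato. Among 533 such endothelial-marker barcodes the shares were 4.32% and 68.1%. How neutrophil barcodes came through the sort was not tested.

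A further 11 barcodes met the S100 clause but were left out with Camp or Prtn3 UMIs, and had a median of 19099 UMIs. In those 11, 10 also had at least 3 UMIs of an other-immune set. Members exceeded them by at least 2-fold at 393 of 3359 genes (11.7%) and were lower at 179 (5.33%), and unmixed barcodes did so at 769 (22.8%) and 913 (27%) of 3377. Of 10 specific granule genes, 8 were lower in members, Camp of the rule among them, and 2 were neither. The differences were large for Ngp (13.7 CPM against 10116), Ltf (1.72 against 1602) and Lcn2 (439 against 5681). Mmp8 was 214 against 630.1. Outside the rule, 15 of the 25 mature neutrophil genes were higher in members and 3 lower, among the higher Ifitm1 (1203 against 57.7) and Mxd1 (914 against 259.7). The 3 lower were Cd177, Mmp8 and Ly6g. In unmixed barcodes 19 were higher and 1, Cd177, was lower. Of 9 gelatinase granule and secretory vesicle genes 1 was higher, Fpr1, and 6 were in unmixed barcodes. Il1b, Csf3r and Cxcr2, which chose the members, were 4121, 1041 and 582 CPM against 443, 178 and 168. Retnlg was close, at 4394 against 3521, and 8272 in unmixed barcodes. Clec7a, the beta-glucan receptor, was 541 against 101. Ccl2, Ccl7 and Ccl12, monocyte-attracting chemokines, were lower in members (107, 35.2 and 53.2 against 880.2, 986 and 673).

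Macrophage-marker barcodes (1070, at least 2 UMIs of Marco, Mrc1, Plet1, Krt79 and Ear1 together) and monocyte-marker barcodes (617, at least 2 UMIs of Csf1r, Cx3cr1, Ace and Treml4 together) were defined among Tyrobp barcodes under 2% S100a8 and S100a9. Members were higher at 425 of 3543 genes (12%) and lower at 322 (9.09%) against the first. Against the monocyte-marker barcodes 238 of 3433 (6.93%) were higher and 88 (2.56%) lower. Unmixed barcodes gave 759 higher (20.7%) and 1246 lower (34.1%) of 3658 against the first, and 618 (17.2%) and 1152 (32%) of 3600 against the monocyte-marker barcodes. Retnlg, at 4394 CPM in members, was 133 in macrophage-marker and 119 in monocyte-marker barcodes. Lcn2 was 19.0 and 17.8, and Mmp9 35.4 and 30.3. Among genes lower than in macrophage-marker barcodes outside their marker set were Fabp1, a fatty acid-binding protein (46.3 against 686), and Spp1, osteopontin (20.6 against 239). Fn1, fibronectin, was 168 in members and 739 in monocyte-marker barcodes, and Plac8 563 and 1385. Csf1r, the macrophage growth factor receptor, was 276 in all members, 171 in unmixed barcodes and 507 in monocyte-marker barcodes, which were chosen by it. Within unmixed barcodes 4 or fewer Csf1r UMIs were seen in any barcode.

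**Figure D5:**
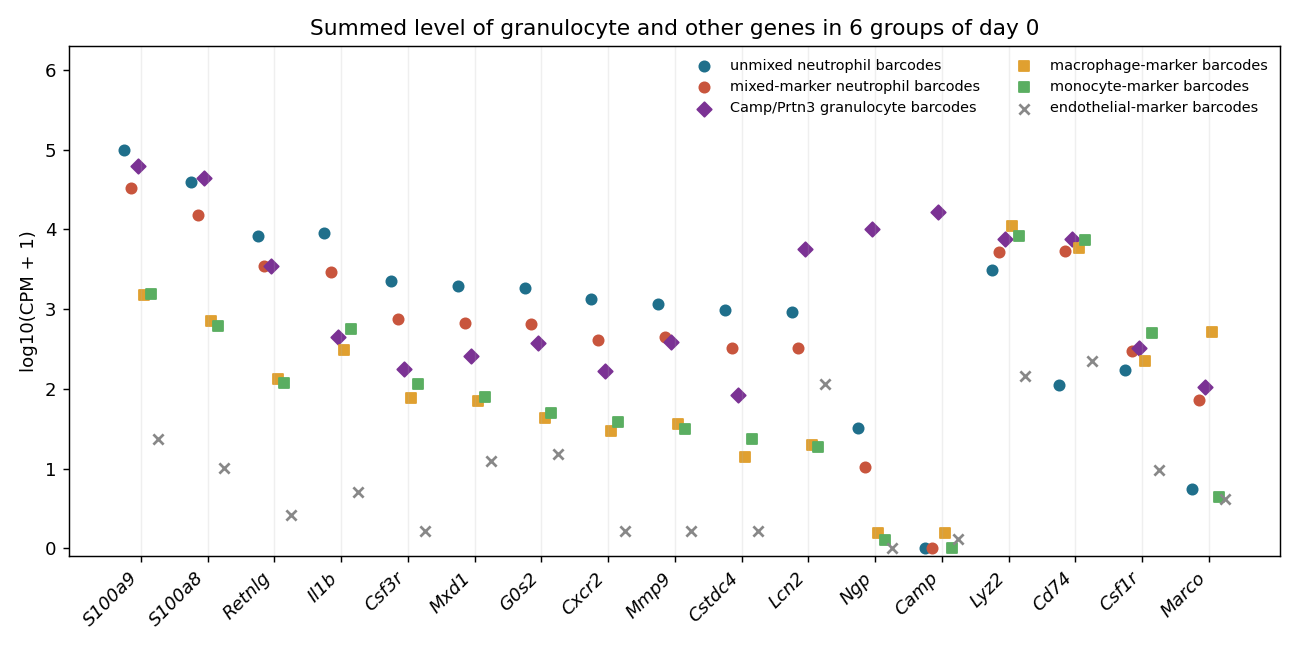
Points give log10(CPM + 1) of summed UMIs for 17 genes in 6 groups of day 0 barcodes: unmixed (145) and mixed-marker (167) neutrophil, Camp/Prtn3 granulocyte (11), macrophage-marker (1070), monocyte-marker (617) and endothelial-marker (1447). S100a8, S100a9, Il1b, Csf3r, Cxcr2, Camp, Cd74, Csf1r and Marco were read to choose the groups. Of the other genes, Retnlg, Mxd1, G0s2, Mmp9 and Cstdc4 are highest in unmixed barcodes, and Lcn2 and Ngp in Camp/Prtn3 granulocytes.

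Among members the calprotectin genes and Retnlg varied most. The Fano factor, the variance over the mean of thinned counts, was 39.5 for S100a9, 24.1 for S100a8 and 13.2 for Retnlg over 290 members, and 94 of 692 genes with a mean of at least 0.2 UMIs reached 2. Cd74 had a Fano factor of 10.9 over all members and 0.992 in unmixed ones, a difference that the division itself sets. The factor is larger for abundant genes at the same relative spread. In the 127 unmixed barcodes that could be thinned, S100a9 (28.0), S100a8 (21.7), Retnlg (14.2), Ager (13.0) and Cstdc5 (12.1) had the largest factors. Hopx, another gene of alveolar type I cells (7.61), was above Ifitm1 (6.32), and Cbr2 (6.09), Vegfa (5.85) and Tppp3 (4.91), genes of epithelial cells among others, were also high. Ager had UMIs in 13 of the 127 and Hopx in 16. Retnlg there had a median of 5 UMIs, a maximum of 72 and at least 1 in 89.8%. Ccl4, a CC chemokine with a Fano factor of 9.49, had UMIs in 7 of the 127.

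Across the 127 unmixed barcodes, with counts thinned to 1 depth, S100a9 and S100a8 had a Spearman correlation of 0.84, and Retnlg had 0.57 with S100a9 and 0.56 with S100a8. Retnlg and Cstdc4 had 0.31. Ager and Hopx of the alveolar type I list rose together with Vegfa and Timp3: Vegfa had 0.62 with Timp3, 0.62 with Ager and 0.55 with Hopx, and Ager had 0.55 with Timp3 and 0.48 with Hopx. S100a9 and Ager had -0.37, and S100a8 and Ager -0.32. All points come from 1 library, and shares of a fixed total are tied to each other, so these values are descriptions. Over all 290 thinned members S100a9 had -0.54 with UMIs per barcode and -0.46 with Cd74, and Il1b -0.58 with UMIs per barcode.

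The edges of the rule were graded. The 29 members with 2 to 2.5% of UMIs in S100a8 and S100a9 had 1315 CPM of Retnlg, and 23 were mixed-marker. The 46 barcodes with 1.5 to 2% that met the other clauses had 1102 CPM, and 41 were mixed-marker. At 2 receptor UMIs there were 3 members, and 9 barcodes had 1 and 3 had none. Camp and Prtn3 separated cleanly, with 312 barcodes at 0 and 10 at 2 or more, those 10 with 10486 CPM of Ngp. The gene minimum left out 85 barcodes that met the other clauses, with a median of 660 UMIs and 426 genes. They had 11.3% of UMIs in S100a8 and S100a9 and 5060.3 CPM of Retnlg, and 11 were mixed-marker. The 73 members with 500 to 600 genes had 6658 CPM of Retnlg, and 10 were mixed-marker.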

How the data were processed

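Single-cell RNA was measured in 4 libraries, 1 per day, and groups follow the labelled days. The values are deposited raw UMI counts per gene and barcode for 22547 features, with EGFP and tdTomato among them. Per the submitters' processing notes they were made with Cell Ranger 7.0.1 against mm10. The annotation used, and whether free RNA or doublets were removed before deposit, is not stated in the sources used here. No doublet was removed here.

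Counts were summed over the barcodes of a group and scaled to CPM. A ratio used a floor of 3 UMIs on either side, and a gene was called at 2-fold with at least 50 CPM in the larger group. With 1 library per day no test was possible, so Poisson, conditional Poisson and Clopper-Pearson 95% intervals are given. Shares of barcodes, Fano factors and Spearman correlations used counts thinned to 1000 UMIs with a fixed seed. Named genes were the 20 largest higher and 12 largest lower ratios with at least 200 CPM, the 10 highest levels, the 8 largest ratios each way against each like group, the 12 largest Fano factors, up to 4 genes per list and a set of key genes, without mitochondrial, ribosomal, haemoglobin, immunoglobulin, T cell receptor and predicted genes. Some genes that this rule names are not reported here. Motifs were searched on both strands of RefSeq promoters. The members and lists were chosen with earlier results of these data known, and the other-immune division and the 4000 UMI limit were added after these data were seen. Ratio calls were tested on simulated data. Python 3.11.15, NumPy 2.4.6, SciPy 1.17.1, pandas 2.3.3, Scanpy 1.11.5 (Scrublet) and Matplotlib 3.10.9 were used.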

Additional observations from a re-analysis of the deposited data

How the results depend on the processing

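No paired analysis was possible because each day has 1 library. The number of members was 312, and it was 197 with S100a8 and S100a9 at 5% or more and 145 for unmixed barcodes. It stayed within 1.5 times in the other settings (222 to 438). The 319 genes higher than in other Tyrobp barcodes became 181 with S100 genes at 1% or more, 121 with at least 200 CPM, 87 at 4-fold, 700 in unmixed barcodes and 565 in members under 4000 UMIs. The 207 lower genes became 127 (S100 genes at 1%), 734 (at 5%), 630 (mean of per-barcode CPM), 497 (20 CPM), 61 (200 CPM), 44 (4-fold), 1208 (unmixed) and 869 (under 4000 UMIs). In unmixed barcodes the calls were 769 higher and 913 lower against Camp/Prtn3 granulocytes, 759 and 1246 against macrophage-marker and 618 and 1152 against monocyte-marker barcodes. Members with a Retnlg UMI were 66.0% thinned to 500 UMIs, 89.7% unthinned and 89.8% in unmixed barcodes, and 39 genes had a Fano factor of 2 or more at 500 UMIs. The log2 ratio of Ager was -0.0165 without the highest Scrublet scores, and the log2 ratio of Ngp was 5.02 when barcodes over 2% S100 genes left the comparison group, which removes the Camp/Prtn3 granulocytes. In that setting Ngp was under 50 CPM on both sides. The B cell list median was -1.97 in unmixed barcodes over the genes tested in all members. The cause of the other changes was not tested. Over named genes and alternatives, 666 ratios stayed within the counting interval of the reported ratio, 352 lay outside it with the same side or uncalled, and 2 called ones changed sign. Of list medians 415 stayed within 1.5-fold, 49 did not and 1 that was past 2-fold changed sign. The median log2 ratio of all genes was -0.10, and -0.35 in unmixed barcodes, 0.01 with S100a8 and S100a9 left out of CPM and -0.27 with these genes at 5% or more.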
